A study of Mus musculus with 12 samples.

Results

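Female primordial germ cell-like cells (PGCLCs) after 6 days of culture were compared with primordial germ cells (PGCs) of embryonic day 9.5 (E9.5), gene by gene, on 4 of the 12 arrays of a mouse microarray series. The comparison takes every array labelled as a day 6 (d6) female PGCLC sample, 2 in all, and every array labelled as an E9.5 PGC sample, also 2, and each difference is d6 minus E9.5. PGCLCs are germ cell-like cells that are induced in culture from embryonic stem (ES) cells. The d6 cells were female, on a C57BL/6 background, and carried BVSC, a pair of reporter transgenes in which Blimp1 drives mVenus and stella drives ECFP. The E9.5 cells came from embryos that stella-EGFP transgenic C57BL/6 males sired with wild-type BDF1 females, so their background was mixed, and the labels give the sex of these embryos as unknown. Both kinds of cell were sorted on reporter fluorescence, and each array received amplified cDNA from 5 ng of total RNA, which the labels equate with 500 cells. Blimp1 is Prdm1 and stella is Dppa3, so the sort bears on Dppa3 in both groups and on Prdm1 in the d6 cells. Origin, background, reporter and sex therefore changed together between the groups, and the labels do not say how many cultures or embryos went into a sample. The d6 female arrays carried the array code EA1013 and the E9.5 arrays EA0831 and EA0842, so that code and group cannot be told apart in this comparison. The 2 arrays of male d6 PGCLCs, also C57BL/6 with BVSC, carried EA0831 and EA0842 and are set beside the female values for that reason.

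PGCs are the founder cells of eggs and sperm. In the mouse they arise in the proximal epiblast in response to BMP signals, switch on Prdm1, Prdm14 and Tfap2c, regain a network of pluripotency genes, lose DNA methylation genome-wide and migrate through the hindgut to the genital ridge. In culture the route is imitated by taking ES cells through an epiblast-like state and then exposing aggregates of them to BMP4 together with LIF, SCF and EGF, whereas PGCs of the embryo sit at that stage among hindgut, mesenchyme and blood.

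Over the 12 arrays the medians of the deposited log2 intensities lay between 4.73 and 4.87, and the deposited values were quantile-normalised before testing. The 45101 probe sets held 18194 genes through a probe set with 1 gene symbol, of which the 13436 genes above the overall median of 4.81 on at least 2 arrays were tested. The 2 d6 arrays correlated at 0.984 over these genes, the 2 E9.5 arrays at 0.969, and the pairs across the groups between 0.929 and 0.937. All 9 germ cell markers except Nanos3, which did not pass the filter, were measured in both groups. With 2 arrays per group the spread was estimated from all 6 groups of the series, and a p-value reflects only how far same-group samples, labelled as biological replicates, lie apart. In bulk RNA, fewer cells of a type and less RNA per cell cannot be told apart. In data simulated on these arrays the test called 91.8% of genes changed 4-fold and 33% of genes changed 2-fold.

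Limma's test called 1872 genes at a Benjamini-Hochberg adjusted p below 0.05, which is 13.9% of the genes tested. In the d6 PGCLCs 1119 genes (8.33%) were higher and 753 (5.6%) were lower. The split depended on the scaling, since with the values as deposited 763 genes were higher and 950 lower, and the median change over all genes moved from 0.065 to -0.035 on the log2 scale. The number of calls also depended on single arrays. It was 743 without d6 replicate 1, 836 without d6 replicate 2, 1288 without E9.5 replicate 1 and 1353 without E9.5 replicate 2. At least 2-fold changes made up 1142 of the calls, or 8.5% of the genes tested. Both d6 arrays lay above both E9.5 arrays for 32.1% of all genes and below both for 22.9%, so that non-overlap of the groups alone was common.

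**Figure D1:**
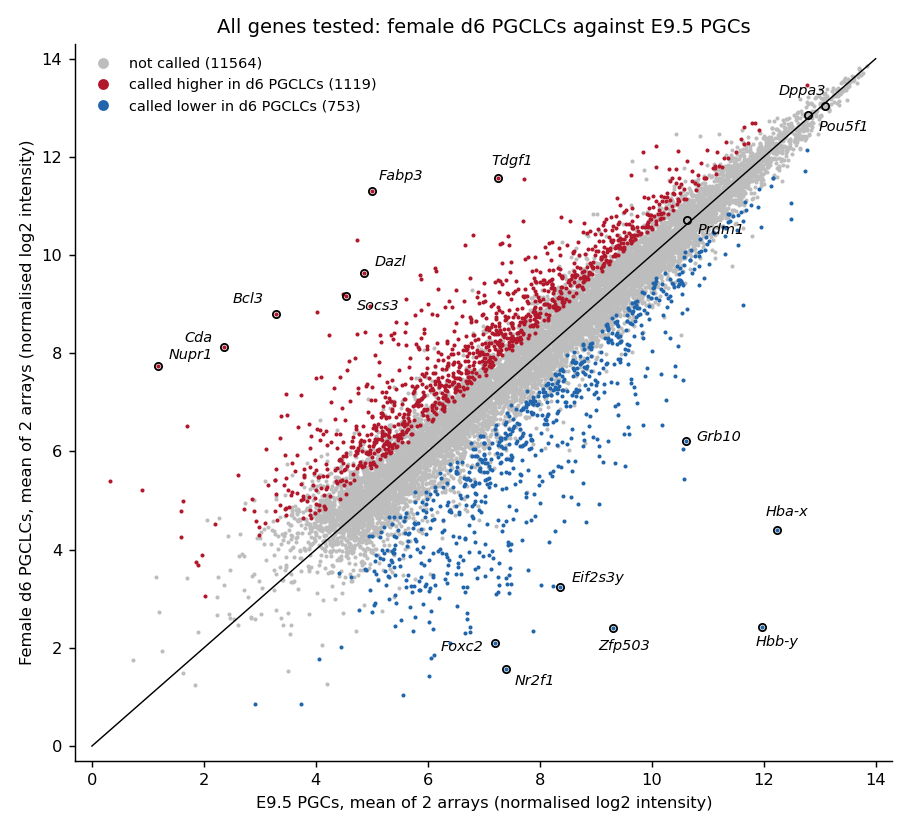
Mean normalised log2 intensity of every gene tested in the 2 E9.5 PGC arrays (horizontal) and the 2 female d6 PGCLC arrays (vertical), with the line of equal level. Red points are the 1119 genes called higher in d6 PGCLCs, blue points the 753 called lower and grey points the rest. The globins Hbb-y and Hba-x lie farthest below the line, Nupr1 and Fabp3 farthest above it, and the germ cell genes Dppa3, Pou5f1 and Prdm1 lie on or near it.

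Among the 15 largest decreases were genes of blood (Hbb-y, Hba-x, Hbb-bh1 and Hemgn), mesenchyme (Foxc2), neural tissue (Sox1) and the Hox clusters (Hoxb9). Among the 15 largest increases were the stress gene Nupr1, Bcl3 and Socs3 of the LIF response, the Nodal co-receptor gene Tdgf1 and the germ cell gene Dazl. The other 10 of these increases were of genes in none of the lists. None of the PGC genes Prdm1, Prdm14, Tfap2c and Dppa3 was called. Each list described here is given with its count of genes called beside the 8.33% of all genes called higher and the 5.6% called lower.

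**Figure D2:**
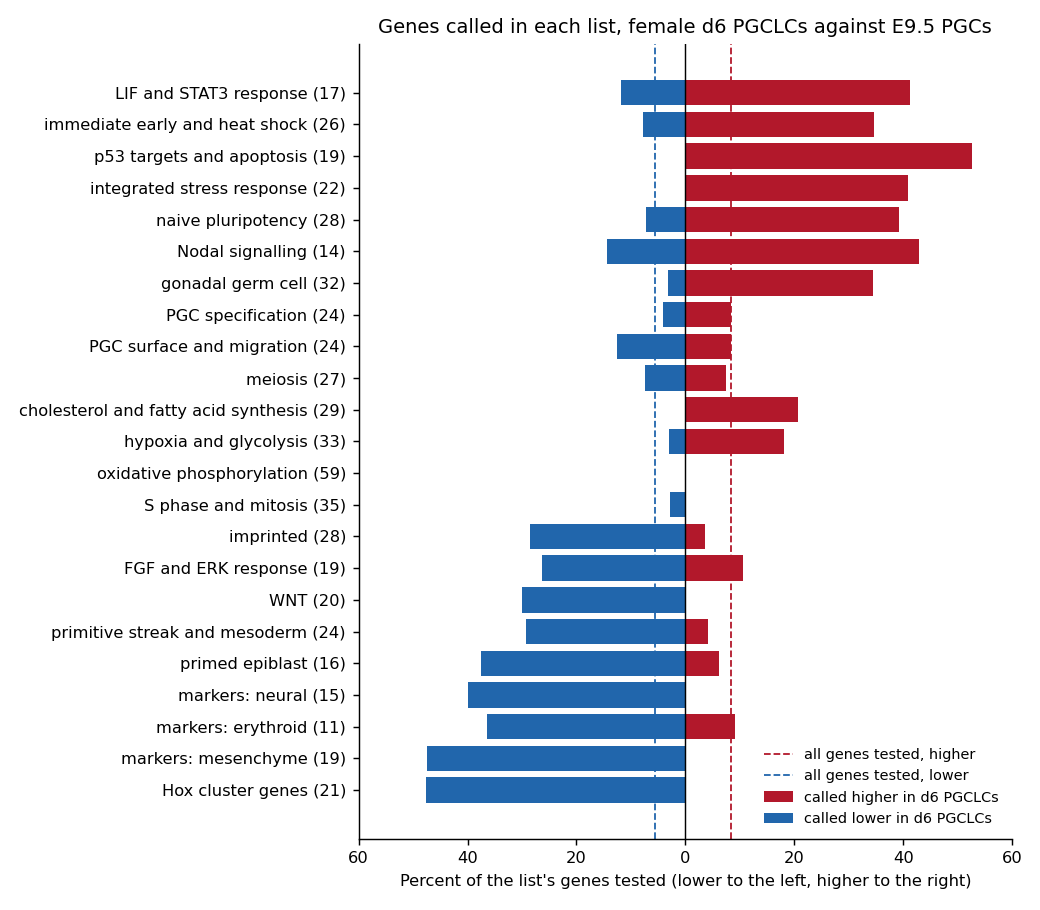
Percent of the genes tested in each list that were called higher (red, to the right) or lower (blue, to the left) in female d6 PGCLCs than in E9.5 PGCs, with the number tested in parentheses. The dashed lines mark the same percent over all genes tested, 8.33% higher and 5.6% lower. The p53, Nodal, LIF and stress response lists reach farthest to the right, the Hox and mesenchyme lists farthest to the left, and the oxidative phosphorylation list holds no call.

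Of the 17 LIF and STAT3 response genes tested, 7 were called higher in the d6 PGCLCs and 2 lower, and the median change was 0.859. LIF is a cytokine that signals through the kinase JAK to the transcription factor STAT3 and keeps mouse ES cells undifferentiated. Socs3, the feedback inhibitor that STAT3 induces, read 8.99 and 9.35 on the d6 arrays and 5.11 and 3.97 on the E9.5 arrays. The groups did not overlap, and the change of 4.63 (SE 0.46) on the log2 scale, or 24.7-fold, was called at an adjusted p of 0.000621. Bcl3, an atypical inhibitor protein of the NF-kappaB family, read 8.59 and 9.02 against 3.75 and 2.83, a change of 5.51 (SE 0.33, adjusted p 7.87e-05). Icam1, an adhesion molecule induced by cytokines, read 7.58 and 7.44 against 4.51 and 3.68, a change of 3.41 (SE 0.30, adjusted p 0.000312). The E9.5 levels of Bcl3 and Icam1 were below 4.81, the median of all values on the arrays. With values under 4.81 raised to 4.81, the changes were 3.99 for Bcl3, 2.70 for Icam1 and 4.21 for Socs3.

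Stat3 itself was higher as well. It read 9.04 and 9.30 on the d6 arrays and 7.89 and 7.50 on the E9.5 arrays, a 2.78-fold difference (log2 change 1.48, SE 0.18, adjusted p 0.00147). Junb, an immediate early AP-1 subunit that also responds to LIF, read 9.06 and 9.05 against 6.71 and 6.05 and rose by 2.67 (SE 0.31, adjusted p 0.00112). Gbx2, a homeobox gene counted among the STAT3 targets of ES cells, went the other way, with 5.60 and 5.77 on the d6 arrays and 8.40 and 8.37 on the E9.5 arrays. It fell by 2.70 (SE 0.24, adjusted p 0.000383). Without any one of the 4 arrays the list held 6 genes called higher and 2 called lower. On the male d6 arrays Socs3 read 9.21 and 8.57, Bcl3 8.83 and 8.27, and Icam1 7.62 and 7.71, each within 1 log2 unit of the female arrays.

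The promoters of Socs3 and Icam1 hold the palindromic motif to which STAT factors bind, searched as TTCNNNGAA, which reads the same on both strands. It was looked for in the 250 bases before the annotated start of each gene, in the RefSeq windows of the mouse build GRCm38.p6. Among the 15 members of the LIF list with a window, Socs3 and Icam1 were the 2 that held it, and both were called higher. Of the 10821 tested genes with a window, 754 (6.97%) held it. The Socs3 window is chr11:117969367-117969616 on the minus strand, with the match 154 bases before the start, and the Icam1 window is chr9:21015690-21015939 on the plus strand, with the match 42 bases before the start. Both are printed 5′ to 3′ with the match in capitals, to show the motif where these strongly changed genes carry it. A match describes the letters in the window and does not show that a factor binds there.
Socs3: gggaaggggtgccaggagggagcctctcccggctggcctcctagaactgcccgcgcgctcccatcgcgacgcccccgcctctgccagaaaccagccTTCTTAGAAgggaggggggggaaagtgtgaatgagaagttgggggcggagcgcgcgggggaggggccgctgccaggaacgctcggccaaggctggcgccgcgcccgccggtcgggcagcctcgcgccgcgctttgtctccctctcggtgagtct
Icam1: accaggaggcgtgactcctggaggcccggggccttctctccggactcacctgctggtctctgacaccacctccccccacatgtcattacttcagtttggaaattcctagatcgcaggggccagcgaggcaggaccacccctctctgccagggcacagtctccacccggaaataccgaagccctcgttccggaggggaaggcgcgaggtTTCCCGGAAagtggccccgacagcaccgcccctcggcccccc

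Immediate early genes are those which cells switch on within minutes of a stimulus. Of the 26 members tested in the list of immediate early and heat shock genes, 9 were called higher and 2 lower, with a median change of 0.341. Socs3 and Junb are members of this list too. Nr4a1, an orphan nuclear receptor, read 8.53 and 8.03 on the d6 arrays and 5.68 and 5.08 on the E9.5 arrays, a rise of 2.90 (SE 0.45, adjusted p 0.00394). The list held 5 genes called higher without d6 replicate 1, 6 without d6 replicate 2, 10 without E9.5 replicate 1 and 6 without E9.5 replicate 2.

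Targets of the tumour suppressor p53 that were called were all higher in the d6 PGCLCs. Of the 19 members tested, 10 were called higher by limma and none lower, also at an unadjusted p below 0.05, and the median change was 0.889. Ccng1, which encodes cyclin G1, read 9.90 and 9.89 on the d6 arrays and 8.21 and 8.18 on the E9.5 arrays, with nearly equal replicates in each group. It rose by 1.70 (SE 0.16, adjusted p 0.0005). Phlda3, an inhibitor of AKT, read 9.41 and 9.43 against 7.70 and 6.96, a change of 2.09 (SE 0.23, adjusted p 0.000899). Bbc3, which encodes the pro-apoptotic protein PUMA, read 7.67 and 7.68 against 6.52 and 6.12, a change of 1.36 (SE 0.18, adjusted p 0.0022). Trp53inp1, a stress protein that acts with p53 in the nucleus, read 10.86 and 11.17 against 9.20 and 9.65, a rise of 1.59 with an adjusted p of 0.00395. Its call was lost when all probe sets of a gene were averaged (0.75, adjusted p 0.0791), its further probe set being under 4.81 in both groups. The groups did not overlap for any of these genes.

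Cdkn1a, which encodes the cyclin-dependent kinase inhibitor p21, read 10.12 and 9.61 in d6 cells and 7.95 and 7.02 in E9.5 cells, a rise of 2.38 (SE 0.44, adjusted p 0.00898). Its call was lost without d6 replicate 1 (adjusted p 0.068). With an array left out the p53 list held 6 genes called higher (without d6 replicate 1), 7 (without d6 replicate 2), 8 (without E9.5 replicate 1) or 7 (without E9.5 replicate 2). In male d6 PGCLCs Ccng1 read 10.25 and 10.63 and Phlda3 10 and 10.1, so that both genes lay above the female d6 arrays there.

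Nupr1 had the largest fitted increase of the named genes, a rank that rests on E9.5 values below 4.81. With values raised to 4.81 its change of 2.93 was under those of many named genes. Among these were Fabp3 (6.17), Tdgf1 (4.32), Neat1 (4.30), Dazl, Socs3, Tmem63a (4.02), Bcl3, Lefty2 (3.59) and Lefty1 (2.96). Nupr1 encodes a small nuclear stress protein of the integrated stress response. In this programme cells under amino acid or protein-folding stress raise the transcription factor ATF4. Nupr1 read 7.97 and 7.51 on the d6 arrays and 0.72 and 1.63 on the E9.5 arrays, so it went from near the bottom of the range to near 7.59, the 75th percentile of all values. The fitted change was 6.56 (SE 0.73, adjusted p 0.000899). A further Nupr1 probe set read 7.40 and 7.13 against 0.51 and 0.09. The male d6 arrays gave 7.64 and 7.36.

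Chac1, which degrades glutathione, read 8.45 and 7.91 against 5.62 and 5.33, and was higher by 2.71 (SE 0.38, adjusted p 0.00257). Trib3, a pseudokinase that damps AKT and ATF4, read 8.28 and 7.70 against 6.58 and 6.31, and was higher by 1.54 (SE 0.25, adjusted p 0.00504). Both genes were above 4.81 in every array of both groups. Of the 22 members of the stress list tested, 9 were called higher by limma and none lower (1 lower at an unadjusted p below 0.05), with a median change of 0.609. That count was smaller with any 1 of the 4 arrays left out. The number called higher over all genes tested was smaller in each of these fits too, so the fall was not particular to this list.

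The composite element to which ATF4 binds together with C/EBP proteins was searched in the same windows as TGATGNAAT on both strands. It occurred in 57 of the 10821 tested genes with a window (0.527%) and in 1 of the 20 members of the stress list with a window, which was Nupr1. The Nupr1 window is chr7:126625471-126625720 on the minus strand, and the match, in capitals and read on the opposite strand, lies 111 bases before the start. It is printed because Nupr1 was the member of the stress list that held the motif, and the absence of the motif from the other windows says only that these letters are not in these 250 bases.
Nupr1: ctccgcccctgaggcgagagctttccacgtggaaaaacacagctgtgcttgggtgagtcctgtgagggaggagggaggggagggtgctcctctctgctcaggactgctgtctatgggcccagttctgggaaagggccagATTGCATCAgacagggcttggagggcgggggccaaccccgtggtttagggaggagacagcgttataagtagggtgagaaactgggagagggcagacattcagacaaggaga

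**Figure D3:**
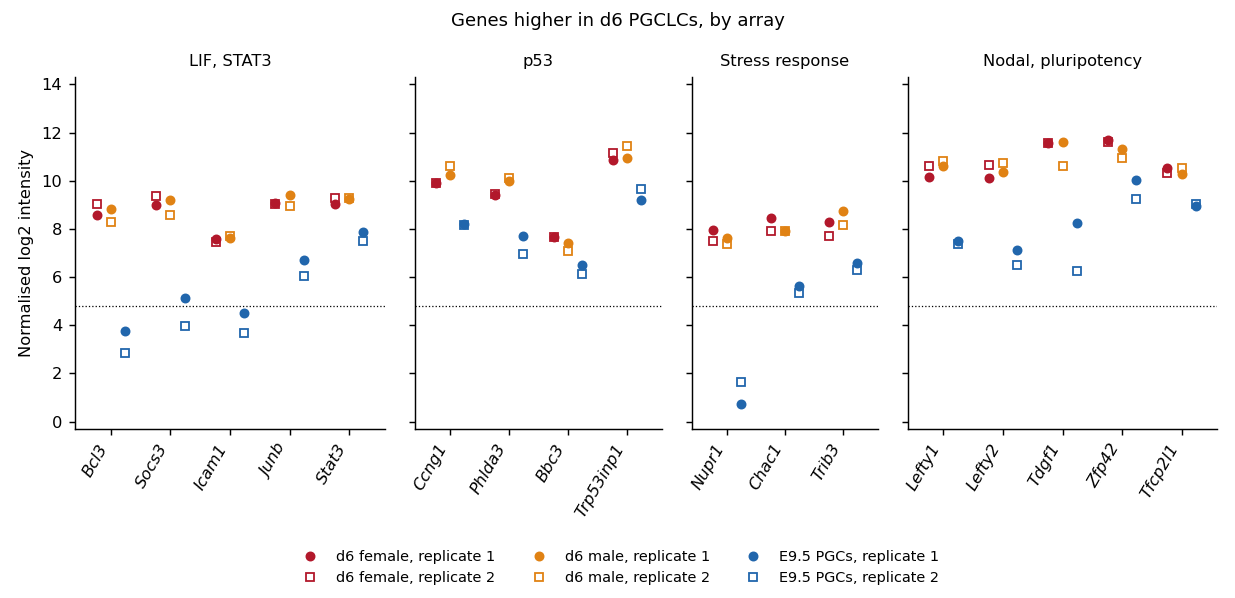
Normalised log2 intensity (vertical) of named genes that were called higher in female d6 PGCLCs, each of the 6 arrays of the female d6, male d6 and E9.5 groups being 1 point. The dotted line is the filter level of 4.81. For every gene shown the 2 red points of the female d6 arrays lie above the 2 blue points of the E9.5 arrays, and Nupr1, Bcl3 and Icam1 are below the line in E9.5 PGCs.

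Several genes of the Nodal pathway and of naive pluripotency were called higher in the d6 PGCLCs. Nodal is a TGF-beta family ligand, the Lefty proteins are secreted inhibitors that it induces, and Tdgf1 (Cripto) is its co-receptor. Lefty1 read 10.14 and 10.62 on the d6 arrays and 7.49 and 7.36 on the E9.5 arrays, a rise of 2.96 (SE 0.24, adjusted p 0.000246). Lefty2 read 10.13 and 10.67 against 7.13 and 6.49, a rise of 3.59 (SE 0.29, adjusted p 0.000246). Tdgf1 read 11.57 on both d6 arrays against 8.26 and 6.25, a 19.9-fold difference (log2 change 4.32, SE 0.55, adjusted p 0.00163). The 2 E9.5 arrays differed from each other by more for Tdgf1 than for either Lefty gene, and replicate 1 had the higher level.

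Smad7, an intracellular inhibitor of TGF-beta and BMP receptors, read 9.12 and 9.24 in d6 cells and 7.01 and 7.0 in E9.5 cells, a rise of 2.17 (SE 0.23, adjusted p 0.000729). Of the 14 Nodal list members tested, 6 were called higher and 2 lower (median change 0.334), and no member was called lower once any 1 of the 4 arrays was left out. Among the members named, Lefty1, Lefty2 and Smad7 are inhibitors and Tdgf1 is a co-receptor.

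Of the 28 naive pluripotency genes tested, 11 were called higher and 2 lower, with a median change of 0.511, and Lefty1, Lefty2, Tdgf1 and Stat3 are also on this list. Zfp42 (Rex1), a zinc finger gene that marks ES cells, read 11.68 and 11.60 against 10.02 and 9.22, and rose by 2.02 (SE 0.26, adjusted p 0.00165). Tfcp2l1, a transcription factor of the naive state, read 10.54 and 10.32 against 8.93 and 9.05, a rise of 1.45 (SE 0.17, adjusted p 0.00119). It was not called when its probe sets were averaged (0.21, adjusted p 0.734), the others being under 4.81 in both groups. No gene of this list was called lower once any 1 of the 4 arrays was left out.

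The transcription factors Pou5f1, Sox2 and Nanog at the centre of the pluripotency network were not called. Pou5f1 (Oct4) read 12.81 and 12.89 in d6 cells and 12.61 and 12.96 in E9.5 cells, and its change of 0.07 had a 95% interval from -0.28 to 0.42 (adjusted p 0.813). For Sox2, with 12.44 and 12.39 against 12.53 and 12.62, the interval ran from -0.48 to 0.16. Nanog, with 11.52 and 10.95 against 10.79 and 11.15, varied more between replicates, and its interval from -0.80 to 1.34 includes 2-fold differences. All 3 genes were far above the filter level in all 4 arrays.

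The genes Prdm1, Prdm14 and Tfap2c that specify PGCs were not called either. Prdm1, the repressor that shuts down the somatic programme, read 10.71 and 10.72 on the d6 arrays and 10.42 and 10.84 on the E9.5 arrays. The E9.5 arrays lay on either side of the d6 arrays, and the change of 0.08 had a 95% interval from -0.52 to 0.69. Prdm14, its partner in germ cell specification, read 10.95 and 11.06 against 10.71 and 10.90 (interval from -0.15 to 0.55). Tfap2c, an AP-2 factor downstream of Prdm1, read 11.88 and 11.86 against 11.92 and 12.17 (interval from -0.50 to 0.14).

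Dppa3 (stella), whose reporters were used to sort the cells, read 13.10 and 12.97 against 13.02 and 13.18. The RNA-binding protein gene Dnd1, needed for PGC survival, read 11.41 and 11.33 against 11.56 and 11.44 (interval from -0.60 to 0.34). For Kit, the receptor for SCF, the values were 11.85 and 11.94 against 11.66 and 12.12, with a wide interval from -1.02 to 1.03. Ifitm3 (fragilis), an early PGC surface gene, read 13.36 and 13.24 against 13.34 and 13.35 (interval from -0.39 to 0.30). None of these genes was called, and for Prdm1, Prdm14, Tfap2c, Dppa3, Dnd1 and Ifitm3 the interval excludes a 2-fold difference in either direction.

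Of the 24 PGC specification genes tested, 2 were called higher and 1 lower, a share near the 8.33% and 5.6% of all genes, with a median change of -0.019. The gene called lower was Lin28a, an RNA-binding protein that blocks let-7 maturation, which read 8.41 and 7.67 against 10.05 and 9.97 (change -1.97, SE 0.46, adjusted p 0.0236). Leaving out any 1 of the 4 arrays ended this call, with adjusted p-values from 0.0505 to 0.14. No gene of the list was called in either direction without d6 replicate 2 or without E9.5 replicate 2.

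**Figure D4:**
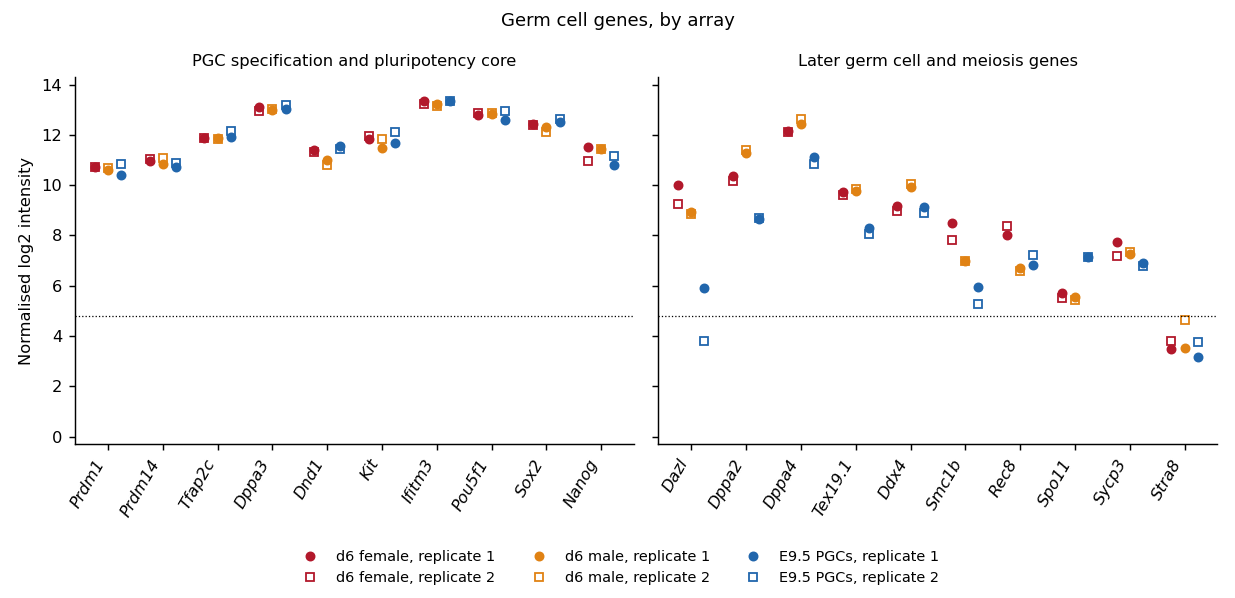
Normalised log2 intensity (vertical) of germ cell genes on the 2 female d6, 2 male d6 and 2 E9.5 arrays, with the filter level of 4.81 dotted. In the left panel the points of the 3 groups lie close together for Prdm1, Dppa3, Pou5f1 and the other core genes. In the right panel Dazl and Smc1b are higher in both d6 groups, Rec8 is higher in the female d6 arrays, and Spo11 is lower in both.

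Some cell surface genes used to recognise or sort germ cells differed. Cd24a, a small anchored glycoprotein, read 11.02 and 11.09 on the d6 arrays and 12.38 and 12.60 on the E9.5 arrays, a fall of 2.71-fold (change -1.44, SE 0.15, adjusted p 0.000644). Cdh2 (N-cadherin) read 5.61 and 5.80 against 8.66 and 7.98 (change -2.61, SE 0.32, adjusted p 0.0014). Fut4, a fucosyltransferase gene, was dim on the d6 arrays at 3.22 and 3.13 against 5.30 and 4.62. Its fitted change was -1.78 (adjusted p 0.00183), and -0.24 with values under 4.81 raised to 4.81. Cd9, a tetraspanin of the germ line and of ES cells, read 11.08 and 10.69 against 9.30 and 9.70 (change 1.39, SE 0.25, adjusted p 0.0078), a call that was lost without d6 replicate 1 (adjusted p 0.0634). Of the 24 surface and migration genes tested, 2 were called higher and 3 lower, and the number called lower was 3 whichever array was left out, while none was called higher without d6 replicate 1 and 1 without d6 replicate 2.

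Some genes of later germ cell development were higher in the d6 PGCLCs. Dazl, an RNA-binding protein that PGCs gain around the time they reach the gonad, read 10 and 9.26 on the d6 arrays and 5.92 and 3.81 on the E9.5 arrays. It was 27.3-fold higher (log2 change 4.77, SE 0.61, adjusted p 0.00161), and 4.27 on the log2 scale with values under 4.81 raised to 4.81. Male d6 cells read 8.92 and 8.84. Ddx4 (Vasa), an RNA helicase of the germ plasm that is often paired with Dazl as a marker of this stage, read 9.17 and 8.96 against 9.14 and 8.90, with an interval from -0.61 to 0.70. The groups were widely separated for Dazl and overlapped for Ddx4.

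Dppa2 and Dppa4, paired chromatin proteins of pluripotent and germ cells on chromosome 16, were both higher. Dppa4 read 12.16 and 12.13 against 11.11 and 10.85 (change 1.16, SE 0.17, adjusted p 0.00309). Dppa2 read 10.38 and 10.15 against 8.67 and 8.69 (change 1.59, SE 0.24, adjusted p 0.0038). On the male arrays Dppa2 read 11.30 and 11.39, above the female arrays, and the median gene of chromosome 16 was 0.268 higher in male d6 PGCLCs than in E9.5 PGCs, against 0.080 in female d6 PGCLCs. The part of that chromosome-wide shift in the male values was not tested. Tex19.1, which restrains transposons in germ cells and ES cells, read 9.75 and 9.63 against 8.28 and 8.06 (change 1.52, SE 0.23, adjusted p 0.00393).

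Of the 32 gonadal germ cell genes tested, 11 (34.4%) were called higher and 1 lower, beside 8.33% and 5.6% of all genes, with a median change of 0.738 against 0.065. A further 3 genes on the array did not pass the filter. Without d6 replicate 1, d6 replicate 2, E9.5 replicate 1 and E9.5 replicate 2 the number called higher was 6, 7, 8 and 8. The median change in the male d6 arrays was 0.770.

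Many promoters of germ cell genes hold CACGTG, the E-box letters bound by the MYC and MAX family of factors and by the MGA repressor complex of germline genes. In the 250 bases before the start, searched on both strands, it occurred in 1046 of the 10821 tested genes with a window (9.67%). Among the gonadal germ cell genes 10 of 25 with a window held it, of which 5 were among the 8 called higher and 5 among the 16 not called. Among the meiosis genes 6 of 22 held it, and none of these 6 was called. Mael and Mov10l1, both of the piRNA pathway that silences transposons, show the motif in genes that were called higher, and they were picked after their values were seen. Mael read 7.94 and 7.72 against 6.65 and 6.30 (change 1.36, adjusted p 0.0268), and the call was lost with any 1 array left out (adjusted p from 0.0542 to 0.138). Mov10l1 read 7.34 and 6.35 against 5.73 and 5.58 (change 1.19, adjusted p 0.0212), and the call held only without d6 replicate 2, being lost without d6 replicate 1, E9.5 replicate 1 or E9.5 replicate 2 (adjusted p 0.0664, 0.058 and 0.0821). The windows, from RefSeq and GRCm38.p6, are chr1:166238745-166238994 on the minus strand for Mael and chr15:88982744-88982993 on the plus strand for Mov10l1, with the capitals marking the match at 223 and 246 bases before the start.
Mael: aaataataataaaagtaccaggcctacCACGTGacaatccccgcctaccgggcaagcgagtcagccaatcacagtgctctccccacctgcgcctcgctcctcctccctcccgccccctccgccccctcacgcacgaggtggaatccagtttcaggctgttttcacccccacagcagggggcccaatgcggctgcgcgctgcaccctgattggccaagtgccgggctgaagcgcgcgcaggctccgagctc
Mov10l1: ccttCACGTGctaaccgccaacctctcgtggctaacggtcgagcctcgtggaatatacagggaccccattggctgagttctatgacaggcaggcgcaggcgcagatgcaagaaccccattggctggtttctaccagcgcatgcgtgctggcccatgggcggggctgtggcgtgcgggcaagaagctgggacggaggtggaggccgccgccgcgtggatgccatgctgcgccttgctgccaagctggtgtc

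Meiosis genes did not move together. Of the 27 tested, 2 were called higher and 2 lower, a share near that of all genes, and 1 was called lower with any 1 array left out. Smc1b, a meiotic cohesin subunit, read 8.51 and 7.81 on the d6 arrays and 5.94 and 5.28 on the E9.5 arrays (change 2.55, SE 0.38, adjusted p 0.00317). Rec8, the kleisin of meiotic cohesin, read 8.03 and 8.38 against 6.81 and 7.24 (change 1.18, SE 0.21, adjusted p 0.0073), and the call was lost without d6 replicate 2 (adjusted p 0.0566). Spo11, the enzyme that makes meiotic double-strand breaks, went the other way, with 5.72 and 5.53 against 7.16 and 7.15 (change -1.53, SE 0.19, adjusted p 0.00144). The groups did not overlap for any of these 3 genes.

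Sycp3, a component of the synaptonemal complex, read 7.74 and 7.18 against 6.89 and 6.79 and was not called (change 0.62, adjusted p 0.141). Stra8, the retinoic acid target that opens meiosis, was below the filter level on all 4 arrays, at 3.49 and 3.81 against 3.17 and 3.77. Among the 12 oocyte genes tested 1 was called, the maternal-effect gene Ooep, with 10.18 and 9.93 against 8.62 and 7.65 (change 1.92, SE 0.37, adjusted p 0.0102), a call that was lost without d6 replicate 1 (adjusted p 0.0699).

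Globins and other genes of blood were far higher on the E9.5 arrays. Hbb-y, an embryonic beta-like globin, read 12.54 and 11.42 on the E9.5 arrays and 2.39 and 2.48 on the d6 arrays, a fitted change of -9.54 (SE 0.74, adjusted p 0.000197). Hba-x, the embryonic zeta globin, read 12.73 and 11.73 against 4.22 and 4.57 (change -7.84, SE 0.39, adjusted p 4.08e-05). With values under 4.81 raised to 4.81 the changes were -7.16 for Hbb-y and -7.42 for Hba-x, so that the order of these globins turned. Hbb-bh1, another embryonic beta-like globin, read 11.52 and 9.64 against 5.30 and 5.58 (change -5.14, SE 0.51, adjusted p 0.000621). These globins are made by primitive red cells of the yolk sac, and on the E9.5 arrays they stood among the brighter genes of a germ cell sample.

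Alas2, the first enzyme of heme synthesis in red cells, read 7.80 and 5.96 against 3.18 and 3.66 (change -3.45, SE 0.48, adjusted p 0.00255). Hemgn, a nuclear protein of blood progenitors, read 6.66 and 5.37 against 0.61 and 2.24 (change -4.59, SE 0.74, adjusted p 0.00461). With values under 4.81 raised to 4.81 the changes were -2.06 for Alas2 and -1.20 for Hemgn. E9.5 replicate 1 was above replicate 2 for all 5 genes. Of the 11 erythroid markers tested, 4 were called lower in d6 PGCLCs and 1 higher, the higher call being lost whichever array was left out. The summed level of the 15 erythroid markers on the array was 14.05 and 12.92 (log2) on the E9.5 arrays, 9.54 on both female d6 arrays and 9.94 and 9.83 on the male d6 arrays, and no marker of the list was at 0 in either group. The summed level of the macrophage and blood markers did not show this, with 9.72 and 9.39 on the E9.5 arrays and 9.69 and 9.64 on the d6 arrays. Of the 12 tested, 1 was called higher in d6 PGCLCs and none lower. Ctss, which was not called, read 6.75 and 1.65 on the E9.5 arrays and 0.87 and 1.67 on the d6 arrays.

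Hox genes, the ordered transcription factors that give cells their position along the body, were lower in the d6 PGCLCs where they were called. Of the 21 tested, 10 were called lower by limma and none higher, also at an unadjusted p below 0.05, with a median change of -1.77. A further 12 on the array did not pass the filter. Hoxb1 passed it only through the E9.5 arrays, so a lower value in d6 PGCLCs was nearly fixed in advance. Hoxb1 read 2.60 and 2.59 on the d6 arrays and 7.23 and 6.18 on the E9.5 arrays (change -4.11, SE 0.36, adjusted p 0.000315). Hoxb9 read 3.20 and 3.36 against 8.77 and 7.29 (change -4.75, SE 0.53, adjusted p 0.000899). Hoxc8 read 1.68 and 2.52 against 7.31 and 5.49 (change -4.31, SE 0.56, adjusted p 0.00179). The d6 levels of these genes lie in the dim part of the array's range, and with values under 4.81 raised to 4.81 the changes were -1.89 for Hoxb1, -3.22 for Hoxb9 and -1.59 for Hoxc8. Hoxd9 read 4.49 and 4.58 against 7.19 and 6.92 (change -2.52, SE 0.27, adjusted p 0.00081). All 10 Hox genes called lower were higher on E9.5 replicate 1 than on replicate 2, by a median of 1.25. The number called lower was 7 without E9.5 replicate 1, d6 replicate 1 or d6 replicate 2, and 12 without E9.5 replicate 2.

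Mesenchyme markers that were called followed the same order of the arrays. Of the 19 tested, 9 were called lower in d6 PGCLCs by limma and none higher (1 at an unadjusted p below 0.05), with a median change of -1.35. Foxc2, a forkhead factor of somites and vessels, read 2.15 and 2.03 on the d6 arrays and 8.24 and 6.17 on the E9.5 arrays (change -5.11, SE 0.75, adjusted p 0.00317). Twist1, a basic helix-loop-helix factor of mesenchyme, read 2.92 and 3.32 against 8.62 and 6.28 (change -4.33, SE 0.73, adjusted p 0.00593). Postn, a matrix protein, read 4.48 and 4.72 against 8.20 and 7.49 (change -3.24, SE 0.48, adjusted p 0.00327). With values under 4.81 raised to 4.81 the changes were -2.39 for Foxc2 and -2.64 for Twist1. All 9 genes called were higher on E9.5 replicate 1 than on replicate 2, by a median of 1.38 on the log2 scale. Without E9.5 replicate 1 the list held 5 genes called lower, without E9.5 replicate 2 it held 10, and without d6 replicate 1 or 2 it held 4 and 5. The summed level of the 22 mesenchyme markers was nearer, 13.82 and 13.43 on the E9.5 arrays against 13.40 and 12.89 on the female d6 arrays. The male d6 arrays gave 13.68 and 13.70, both above E9.5 replicate 2.

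Neural markers that were called were lower as well. Of the 15 tested, 6 were called lower by limma and none higher, also at an unadjusted p below 0.05, with a median change of -0.996. Crabp1, a retinoic acid binding protein of neural tissue and neural crest, read 7.67 and 7.24 against 11.11 and 10 (change -3.10, SE 0.46, adjusted p 0.00325). Sox1, a factor of the neural plate, read 0.09 and 1.98 against 6.01 and 5.10 (change -4.52, adjusted p 0.00345, or -0.74 with values under 4.81 raised to 4.81). Neurog2, a proneural factor, read 2.94 and 3.08 against 7.02 and 5.39 (change -3.20, SE 0.52, adjusted p 0.00489, or -1.39 with values raised in the same way). The 6 genes called were again all higher on E9.5 replicate 1, by a median of 1.46. Their number was 6 without E9.5 replicate 1, 9 without E9.5 replicate 2, 4 without d6 replicate 1 and 5 without d6 replicate 2. The summed level of the 19 neural markers was 12.29 and 10.94 on the E9.5 arrays and 10.17 and 9.82 on the d6 arrays.

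E9.5 replicate 1 was above replicate 2 for every erythroid, Hox, mesenchyme and neural gene called lower. Over all 753 genes called lower it was above for 480, with a median difference of 0.18, and over all 13436 genes tested for 7012, with a median difference of 0.03. The part of other cell types, or of array code, in the levels of these genes in the E9.5 samples was not tested. Among all members tested, replicate 1 was higher for 10 of 11 erythroid, 18 of 21 Hox, 15 of 19 mesenchyme and 13 of 15 neural genes. Lists of germ cell genes varied in this respect. Replicate 1 was higher for 8 of 24 PGC specification genes tested (median difference -0.16), 20 of 32 gonadal germ cell genes (0.23) and 17 of 27 meiosis genes (0.10). It was also higher for 43 of 59 oxidative phosphorylation genes (0.35) and 20 of 28 imprinted genes (0.53), but for 8 of 35 S phase and mitosis genes (-0.21). Alas2, Hemgn, Foxc2, Sox1 and Neurog2 passed the filter only through the E9.5 arrays. A lower value in d6 PGCLCs was thus nearly fixed in advance for them. Alas2, Foxc2, Sox1, Neurog2 and Hoxb1 are counted among the genes called lower in their lists. The counts and median changes of the erythroid, mesenchyme, neural and Hox lists therefore share this limit in part.

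**Figure D5:**
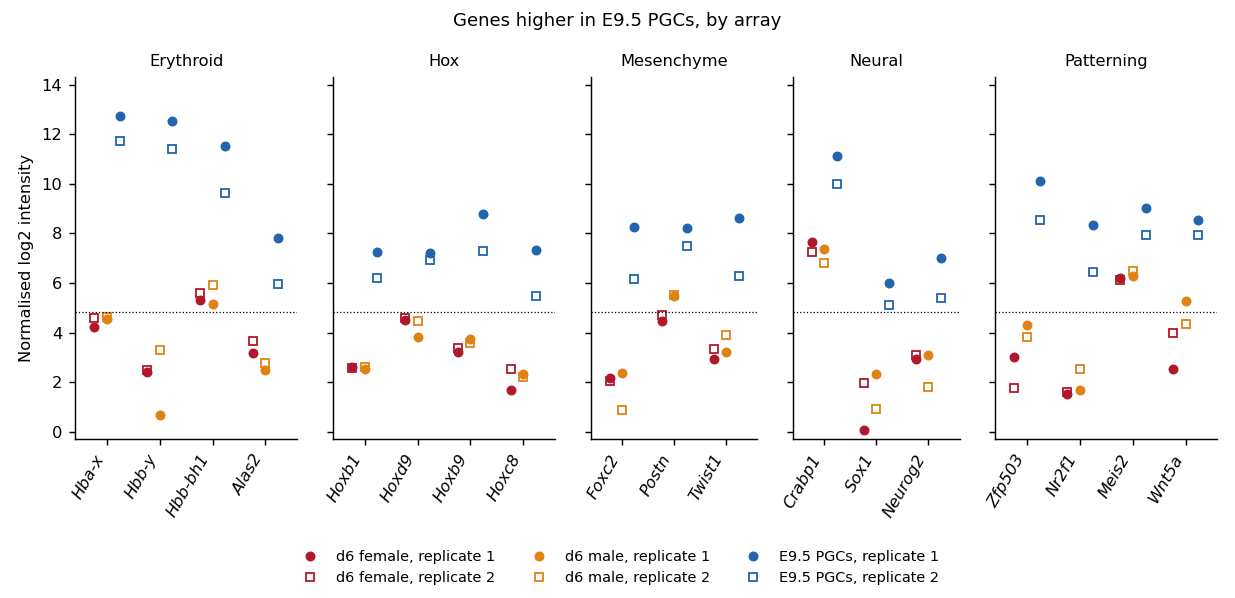
Normalised log2 intensity (vertical) of erythroid, Hox, mesenchyme, neural and patterning genes on the 2 female d6, 2 male d6 and 2 E9.5 arrays, with the filter level of 4.81 dotted. Both E9.5 points lie above all 4 d6 points for each gene, and E9.5 replicate 1 (filled blue) lies above replicate 2 (open blue) for each. Most d6 points are at or under the dotted line. Those of Hbb-bh1, Crabp1 and Meis2, the male points of Postn and male replicate 1 of Wnt5a lie above it.

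Several developmental transcription factors were lower in the d6 PGCLCs, 2 of them, Zfp503 and Nr2f1, among the 15 largest decreases. Zfp503, a zinc finger repressor, read 3.02 and 1.77 on the d6 arrays and 10.10 and 8.52 on the E9.5 arrays (change -6.91, SE 0.65, adjusted p 0.000456). Nr2f1 (COUP-TFI), an orphan nuclear receptor, read 1.51 and 1.62 against 8.32 and 6.46 (change -5.82, SE 0.54, adjusted p 0.000429). With values under 4.81 raised to 4.81 the changes were -4.50 for Zfp503 and -2.57 for Nr2f1. Nr2f1 passed the filter only through the E9.5 arrays, which nearly fixed its direction in advance. Meis2, a homeodomain cofactor of Hox proteins, read 6.18 and 6.13 against 9.03 and 7.94 (change -2.33, SE 0.30, adjusted p 0.00176). Msx1, a homeobox gene and a BMP target, read 6.85 and 6.73 against 8.17 and 8.46 (change -1.52, SE 0.19, adjusted p 0.00147). For Msx1, unlike Zfp503, Nr2f1 and Meis2, E9.5 replicate 2 was the higher of the 2. Of the 24 primitive streak and mesoderm genes tested, 7 were called lower and 1 higher, with a median change of -0.368.

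WNT pathway genes that were called were all lower. Of the 20 tested, 6 were called lower by limma and none higher (2 at an unadjusted p below 0.05), and the number called lower stayed between 4 and 6 with an array left out, being 4 without d6 replicate 1, d6 replicate 2 or E9.5 replicate 1. Wnt5a, a ligand of the non-canonical branch, read 2.55 and 3.99 against 8.55 and 7.92 (change -4.97, SE 0.56, adjusted p 0.000899). A further Wnt5a probe set, above 4.81 on all 4 arrays, read 5.12 and 5.35 against 5.54 and 5.62. Its change of -0.34 was not called. Rspo3, a secreted amplifier of WNT signals, read 4.55 and 4.75 against 6.54 and 7.06 (change -2.15, SE 0.34, adjusted p 0.0042). Sfrp2, a secreted WNT antagonist, read 4.46 and 4.70 against 8.81 and 8.05 (change -3.85, SE 0.23, adjusted p 7.87e-05). Sp8, a zinc finger factor of limb and tail buds that responds to WNT, read 3.45 and 3.75 against 6.75 and 6.92 (change -3.24, SE 0.27, adjusted p 0.000274). Raising values under 4.81 to 4.81 gave changes of -3.42 for Wnt5a and -2.03 for Sp8. The decrease thus covered a ligand, an amplifier, an antagonist and a target.

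Among markers of the primed epiblast, the state after implantation, 6 of the 16 tested were called lower and 1 higher, and the number called lower was 6 with any 1 array left out. Fgf5, a growth factor that marks this state, read 3.25 and 3.56 against 6.19 and 6.43 (change -2.90, SE 0.24, adjusted p 0.000253, or -1.50 with values under 4.81 raised to 4.81). Sox3, an X-linked factor of epiblast and neural plate, read 4.92 and 4.93 against 9.15 and 8.22 (change -3.76, SE 0.38, adjusted p 0.000644). Sfrp2 and Cdh2 are members of this list too. In the female d6 PGCLCs, then, Fgf5 lay below the filter level while the naive genes Zfp42 and Tfcp2l1 were higher than in E9.5 PGCs.

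Targets of BMP and of FGF were divided. Of the 16 BMP targets tested, 3 were called higher and 3 lower. Gata2, a zinc finger factor of blood, trophoblast and germ cell precursors, read 10.69 and 10.48 against 9.18 and 9.44 (change 1.28, SE 0.16, adjusted p 0.00158). Id4, an inhibitor of differentiation, read 5.69 and 4.96 against 7.81 and 8.18 (change -2.67, SE 0.27, adjusted p 0.000638). A further probe set of this gene gave 0.41 in the opposite direction and another gave -2.80, and neither was called. Of the 19 FGF and ERK response genes tested, 2 were called higher and 5 lower. Spred1, an inhibitor of ERK signalling, read 8.34 and 8.36 against 9.41 and 9.45 (change -1.08, SE 0.14, adjusted p 0.00181). A further probe set of it gave 0.21, while its others above 4.81 on at least 2 of the 4 arrays gave changes from -1.83 to -1.13. Ccnd1, which encodes cyclin D1, a target of growth factor signals, read 6.90 and 6.53 against 9.43 and 8.36 (change -2.18, SE 0.38, adjusted p 0.0068). This call was lost without d6 replicate 2. Further Ccnd1 probe sets gave -3.65, which was called, and -0.50, which was not. The FGF list held 4 genes called lower without d6 replicate 1, E9.5 replicate 1 or E9.5 replicate 2, and 2 without d6 replicate 2.

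Few cell cycle genes were called. Of the 35 S phase and mitosis genes tested, 1 was called, the thymidylate synthase gene Tyms, with 3.82 and 3.29 against 5.44 and 5.02 (change -1.68, adjusted p 0.0166, or -0.42 with values under 4.81 raised to 4.81), close to the filter level and lost without d6 replicate 2 or E9.5 replicate 1 (adjusted p 0.107 and 0.0784). Tyms passed the filter only through the E9.5 arrays, so a lower value in d6 PGCLCs was nearly fixed in advance for it. The median change of the list was -0.136. Cdkn1a was higher and Ccnd1 lower among the 14 D cyclins and inhibitors of G1 tested, in which 1 gene was called higher and 2 lower.

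Some glycolysis and hypoxia genes differed between female and male d6 PGCLCs. Of the 33 tested, 6 were called higher and 1 lower in female d6 PGCLCs, with a median change of 0.361. The male d6 arrays against the same E9.5 arrays gave 3 higher and 8 lower, with a median of -0.246. Over all genes that male comparison called 6.04% higher and 4.55% lower. The difference between female and male d6 PGCLCs was itself called for 6 of the 33 genes, beside 1.47% of all genes, 2 of the 28 imprinted genes and 2 of the 6 sex-linked genes. Array code and sex changed together between these d6 groups and cannot be told apart.

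Vegfa, the hypoxia-induced growth factor of vessels, read 5.85 and 6.25 on the female d6 arrays, 4.33 and 3.85 on the male d6 arrays and 3.47 and 2.74 on the E9.5 arrays (female minus E9.5 2.95, SE 0.30, adjusted p 0.000644, or 1.24 with values under 4.81 raised to 4.81). Aldoc, an aldolase of glycolysis, read 9.34 and 9.51, 7.68 and 6.58, and 7.52 and 6.48 in the same order of groups (female minus E9.5 2.43, SE 0.41, adjusted p 0.00593). For Aldoc the male d6 and E9.5 arrays overlapped and the female d6 arrays stood above both. Hk1, a hexokinase, read 12.13 and 12.07 in female d6, 11.41 and 10.68 in male d6 and 10.08 and 9.61 in E9.5 cells (female minus E9.5 2.25, SE 0.27, adjusted p 0.00124). The number of genes of this list called higher was 3 without d6 replicate 2 and 4 without E9.5 replicate 2.

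None of the 59 nuclear genes of oxidative phosphorylation tested was called by limma in female d6 PGCLCs, and their median change was 0.190. At an unadjusted p below 0.05, 1 of them was higher and 2 were lower. In the genes of cholesterol and fatty acid synthesis 6 of 29 were called higher and none lower (median change 0.564), with 2 without d6 replicate 1, 3 without d6 replicate 2, 7 without E9.5 replicate 1 and 3 without E9.5 replicate 2. Scd1, the desaturase that makes monounsaturated fatty acids, read 9.21 and 9.34 against 8.07 and 7.76 (change 1.36, SE 0.18, adjusted p 0.00181). Srebf1, the transcription factor that drives lipid synthesis, read 10.21 and 10.33 against 9.31 and 9.26 (change 0.98, SE 0.15, adjusted p 0.00342).

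Of the 15 genes of the DNA methylation machinery tested, 2 were called higher and 1 lower. Dnmt1, the maintenance methyltransferase, read 12.07 and 12.18 on the d6 arrays and 12.0 and 12.03 on the E9.5 arrays, with a 95% interval from -0.22 to 0.43. Uhrf1, which brings Dnmt1 to replicating DNA, spread widely among the arrays of each group (7.87 and 7.22 against 9.07 and 6.96), and its interval from -1.92 to 0.98 leaves its direction undetermined. Dnmt3b, a de novo methyltransferase that PGCs repress, read 7.36 and 6.67 against 7.38 and 6.05. Dnmt3a, the other de novo enzyme, read 7.19 and 7.35 against 8.29 and 8.25 (change -0.996, SE 0.26, adjusted p 0.035), but any 1 array left out ended the call (adjusted p from 0.0971 to 0.166), and a further probe set gave 0.08.

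Tet2, which oxidises 5-methylcytosine, read 8.76 and 8.91 against 7.78 and 7.98 (change 0.95, SE 0.14, adjusted p 0.00365). It was not called with its probe sets averaged (0.65, adjusted p 0.479), its further probe set being under 4.81 in both groups. On the probe set that was called, male d6 cells read 7.68 and 7.65, just below the E9.5 cells. Of the 20 histone methylation genes tested 1 was called.

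Imprinted genes, which are transcribed from 1 parental allele and lose that imprint in PGCs, were called lower in 8 of the 28 tested and higher in 1. The male d6 arrays against the same E9.5 arrays gave 2 lower and 1 higher, beside 4.55% and 6.04% of all genes in that comparison. Grb10, a growth inhibitor, read 6.51 and 5.92 on the female d6 arrays, 8.43 and 8.65 on the male d6 arrays and 10.98 and 10.24 on the E9.5 arrays (female minus E9.5 -4.40, SE 0.31, adjusted p 0.000131). The 3 groups did not overlap, and a further Grb10 probe set gave 0.71 in the opposite direction and was not called. Phlda2, a placental growth inhibitor, read 10.81 and 10.66 against 12.35 and 12.63 (change -1.75, SE 0.33, adjusted p 0.00993), and its call was lost without d6 replicate 1 or 2 (adjusted p 0.0503 and 0.0612). Impact, a paternally expressed regulator of translation, read 10.84 and 10.63 against 9.17 and 9.19 (change 1.56, SE 0.16, adjusted p 0.000697). It was not called with its probe sets averaged (0.67, adjusted p 0.177), the others being under 4.81 in both groups. The number of genes of the list called lower was 8 without E9.5 replicate 2 and 3 without any other 1 array.

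The Y-linked genes Eif2s3y and Kdm5d separated the female d6 PGCLCs from the E9.5 PGCs. Of the 7 Y-linked genes tested, 2 were called lower and 1 higher in the female d6 PGCLCs. Uty, also Y-linked, read 5.59 and 5.67 on the female d6 arrays and 5.82 and 5.90 on the E9.5 arrays and was not called. Eif2s3y, a translation initiation factor subunit on the Y chromosome, read 3.25 and 3.22 on the female d6 arrays, 8.40 and 8.98 on the male d6 arrays and 8.40 and 8.33 on the E9.5 arrays (female minus E9.5 -5.13, SE 0.52, adjusted p 0.000644). Kdm5d, a Y-linked histone demethylase, read 2.23 and 2.46, 7.0 and 5.96, and 8.39 and 7.38 in the same order (female minus E9.5 -5.54, SE 0.64, adjusted p 0.00108). When values under 4.81 were raised to 4.81, the changes were -3.55 for Eif2s3y and -3.07 for Kdm5d. Both E9.5 samples therefore carried RNA of Y-linked genes, which bears on their sex, unknown in the labels. Xist, the RNA of the inactive X chromosome, was low throughout, at 5.58 and 5.59 in female d6 cells and 5.69 and 5.96 in E9.5 cells (interval from -0.88 to 0.40).

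On the X chromosome 92 of 444 genes tested were called (20.7%, beside 13.9% of all genes), 39 higher and 53 lower, and the median change of 0.033 was close to that of all genes. The number called was 38 without d6 replicate 1, 50 without d6 replicate 2, 62 without E9.5 replicate 1 and 66 without E9.5 replicate 2. Fndc3c1, a fibronectin domain gene, read 5.99 and 6.12 on the d6 arrays and 10.50 and 10.61 on the E9.5 arrays (change -4.50, SE 0.19, adjusted p 2.38e-05). Rbmx, an RNA-binding splicing factor, read 6.38 and 6.62 against 9.56 and 9.59 (change -3.08, SE 0.19, adjusted p 7.87e-05). Further Rbmx probe sets above 4.81 gave -2.70, which was called, and -1.01, which was not. The male d6 arrays were also far below the E9.5 arrays, at 6.30 and 6.71 for Fndc3c1, both above the female d6 arrays, and 6.56 and 6.79 for Rbmx.

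Large increases also fell on genes outside these lists. Fabp3, a fatty acid binding protein, read 11.40 and 11.20 on the d6 arrays and 5.46 and 4.54 on the E9.5 arrays, 79-fold apart (log2 change 6.30, SE 0.34, adjusted p 4.47e-05). Cda, cytidine deaminase of the pyrimidine salvage pathway, read 8.09 and 8.16 against 2.45 and 2.28 (change 5.76, SE 0.38, adjusted p 0.0001, or 3.31 with values under 4.81 raised to 4.81). Neat1, the long noncoding RNA of paraspeckles, read 9.01 and 9.41 against 5.0 and 3.97 (change 4.72, SE 0.32, adjusted p 0.000105). Calcoco2, an autophagy receptor, read 11.77 and 11.32 against 8.25 and 7.19 (change 3.83, SE 0.32, adjusted p 0.000274). The male d6 arrays read 10.99 and 10.28 for Fabp3, 7.80 and 7.05 for Cda, 8.67 and 9.02 for Neat1 and 12.11 and 11.80 for Calcoco2, all above both E9.5 arrays.

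The membrane protein Tmem63a, an ion channel, read 8.54 and 9.12 against 4.33 and 3.70 (change 4.82, SE 0.30, adjusted p 7.87e-05). Kcne3, a potassium channel subunit, read 6.99 and 6.04 against 2.59 and 0.80 (change 4.82, SE 0.65, adjusted p 0.00211, or 1.70 with values under 4.81 raised to 4.81). Nts, the precursor of the peptide neurotensin, read 5.90 and 4.88 against 0.63 and 0.0 (fitted change 5.08, adjusted p 0.00395), and with values under 4.81 raised to 4.81 its change was 0.58. Sult2b1, a sulfotransferase of sterols, and Trim47, a ubiquitin ligase, were higher by 4.13 (SE 0.42) and 4.01 (SE 0.52), or by 3.51 and 3.75 with values raised in the same way. Pramel6, a member of a family active in ES cells and germ cells, read 5.23 and 5.22 against 0.52 and 1.27, which is 0.41 above 4.81 when lower values are raised to it. Of the 30 largest changes, 22 had 1 group below 4.81, and raising lower values to that level kept 19 of the 22 past 2-fold.

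Some epithelial and endothelial genes were called too. Cldn4, a tight junction protein, read 8.54 and 8.20 against 5.80 and 4.49 (change 3.23, SE 0.40, adjusted p 0.00145). Krt8, a simple epithelial keratin, was lower, with 6.24 and 6.03 against 8.64 and 7.97 (change -2.17, SE 0.44, adjusted p 0.0132), a call lost without d6 replicate 1, d6 replicate 2 or E9.5 replicate 1 (adjusted p 0.0607, 0.0777 and 0.0691). Krt7 was higher, with 8.13 and 8.37 against 7.32 and 7.07 (change 1.06, SE 0.19, adjusted p 0.00748), and lost its call without d6 replicate 2 (adjusted p 0.0571). Of the 12 genes of that list tested 3 were called higher and 2 lower, so its members did not share a direction.

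Of the 17 endothelial markers tested 4 were called higher and none lower, with none called without d6 replicate 1 or E9.5 replicate 2, 2 without d6 replicate 2 and 1 without E9.5 replicate 1. Robo4, a receptor of vessel walls, read 6.92 and 5.65 against 4.68 and 4.64 (change 1.62, SE 0.35, adjusted p 0.018), and its call was lost without d6 replicate 1, E9.5 replicate 1 or E9.5 replicate 2 (adjusted p 0.0599, 0.0603 and 0.0647). The summed level of the 18 endothelial markers was 11.87 and 11.34 on the d6 arrays and 11.33 and 11.0 on the E9.5 arrays.

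The male d6 PGCLCs, whose arrays share their codes with the E9.5 arrays, gave 1424 called genes against E9.5 (10.6%), 812 higher (6.04%) and 612 lower (4.55%). The E9.5 arrays enter both comparisons, so the female and male values are set side by side and not correlated. Replicate 1 of both groups carried EA0831 and replicate 2 EA0842. For all 1424 genes the differences within each code had the direction of the call. A call rests on the mean of these differences, so this follows largely from the selection. For 22 of the 30 largest changes the female and male d6 means lay within 1 log2 unit of each other, as for Nupr1 (change from E9.5 of 6.56 in female and 6.32 in male d6 PGCLCs), Fabp3 (6.30 and 5.64), Hbb-y (-9.54 and -9.98) and Hoxb9 (-4.75 and -4.38). For the other 8 they lay farther apart. These were Eif2s3y (-5.13 and 0.32), Kdm5d (-5.54 and -1.41), Grb10 (-4.40 and -2.07), Nts (5.08 and 2.72), Zfp503 (-6.91 and -5.24), Wnt5a (-4.97 and -3.44), Sult2b1 (4.13 and 2.54) and Trim47 (4.01 and 2.33), of which Eif2s3y, Kdm5d and Grb10 were called different. Tested directly, female and male d6 PGCLCs differed in 197 genes (1.47%), and of the genes named here 11 did. With the array codes EA0831 and EA0842 as a block, the count of differing genes was 988, and that of female d6 against E9.5 was 2924. This block cannot remove a difference between EA1013 and the other codes. The count of 197 became 12 without female d6 replicate 1 or 2, 239 without male d6 replicate 1 and 29 without male d6 replicate 2.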

How the data were processed

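The values were the authors' deposited log2 intensities, 1 array per sample. Per the labels' protocols, total RNA was reverse-transcribed, amplified by PCR (12 cycles in the initial PCR), and labelled with biotin by the Affymetrix procedure. The summarisation and normalization before deposit are not given in the sources used here, and base 2 was inferred from the range of the values. Of the 45101 probe sets, 34958 had 1 gene symbol in the platform annotation, 932 several and 9211 none, and only the first were used. Symbols were updated to RefSeq GRCm38.p6, in which 34754 of the 34958 matched, and a gene was represented by its probe set with the highest mean.

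The values were quantile-normalised and fitted with limma 3.58.1 in R 4.3.3 (lmFit and eBayes, two-sided) with 1 mean for each of 6 groups. Adjusted p-values are Benjamini-Hochberg over all 13436 genes tested in each of 3 comparisons. The intervals are 95% intervals of the fit, with 6 residual and 2.98 prior degrees of freedom. Group means carry 2 arrays each, and the number of arrays limits the precision. The test was checked on simulated data with 200 of 13436 genes changed, in which 3.15% of calls were false. The genes named were the 15 largest changes in each direction, leaving out provisional symbols and genes whose groups overlapped, from each list the 4 members with the smallest adjusted p, and a set of germ cell genes; Mael and Mov10l1 were added after their values were seen. The genes and lists were chosen with earlier results of these data known. Alternatives covered the filter, scaling, probe set choice, the replicate block, an array code block added later, moderation, the arrays fitted, a 2-fold minimum and each array left out. Promoter windows came from RefSeq. Python 3.11.15 drew the figures.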

Additional observations from a re-analysis of the deposited data

Results flagged for a closer look

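For 11 of the genes named, the value in female d6 PGCLCs differed from that in male d6 PGCLCs at an adjusted p below 0.05 in limma's test of the difference, so that the size of their change from E9.5 PGCs differed between the d6 groups. Sex and array code changed together between these d6 groups and cannot be told apart. The Y-linked genes Eif2s3y and Kdm5d were lower in the female cells by log2 differences of -5.45 (adjusted p 0.0056) and -4.13 (adjusted p 0.0235). The imprinted gene Grb10 differed by -2.33 (adjusted p 0.0164) and Impact by 0.823 (adjusted p 0.0481). Among genes of hypoxia and glycolysis, Aldoc was higher in the female cells by 2.29 (adjusted p 0.0359) and Vegfa by 1.96 (adjusted p 0.0235). The meiotic cohesin gene Rec8 was higher by 1.56 (adjusted p 0.0165), and its male d6 arrays (6.72 and 6.57) lay below the E9.5 arrays. Tet2 was higher by 1.17 (adjusted p 0.0127), Smad7 by 1.18 (adjusted p 0.0479) and Krt7 by 1.11 (adjusted p 0.0299), while Fgf5 differed by -1.33 (adjusted p 0.0359). For each of the 11 genes both female arrays lay on the same side of both male arrays. This follows largely from their selection by the test on these arrays. Fitting only the arrays of the d6 groups called 2 genes in all.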

How the results depend on the processing

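The directions of the 94 named genes called were the same under every alternative that kept them in the fit, and 80 of them kept their call when each array was left out in turn. Of 13436 genes, limma called 1872 in female d6 PGCLCs against E9.5. Fitting only the 4 arrays compared gave 560 genes (297 higher, 263 lower), 86 calls among list members, 30 X-linked calls, 291 genes for male d6 PGCLCs against E9.5 (165 higher, 126 lower) and 2 genes between the d6 groups (1 higher, 1 lower), and 15 named genes lost their call there, among them Dppa4, Trib3, Alas2, Twist1, Rec8, Tet2 and Srebf1. Averaging probe sets ended the calls of 5 named genes (Tfcp2l1, Trp53inp1, Tet2, Dnmt3a and Impact), testing with no filter those of 2 (Mael and Dnmt3a) and a 2-fold minimum those of 3 (Tet2, Dnmt3a and Srebf1). Requiring 2-fold gave 1142 genes, 618 of them higher, 61 on the X chromosome, and 538 higher in male d6 PGCLCs. The filter at the 75th percentile gave 501 genes lower, and no filter gave 57 X-linked calls and 38 between the d6 groups (26 higher, 12 lower). With values as deposited 82 genes were higher and 115 lower between the d6 groups. Replicate numbers follow the array code in the E9.5 and male d6 groups (deviations of same-numbered samples correlated at 0.547) and no stated batch in female d6 (0.221 with E9.5). A replicate block over all groups gave 2058 genes, or 1496 for male d6 PGCLCs, and ended no named call. With the codes EA0831 and EA0842 as a block, chosen after seeing the data, 2924 genes were called (1826 higher), 2004 for male d6 PGCLCs and 988 between the d6 groups (719 higher, 269 lower), and no named call was lost. With 1 array left out the counts ranged from 743 to 1353 genes called (410 to 862 higher, 333 to 611 lower), 95 to 143 list members and 38 to 66 X-linked genes. For male d6 PGCLCs they ranged from 849 to 1105 (463 to 627 higher, 342 to 591 lower), and between the d6 groups from 12 to 239 (7 to 195 higher, 5 to 44 lower). Signs turned only for genes that were never called: Ddx4 to -0.11 with values as deposited, Kit to -0.76 and Xist to 0.62 with probe sets averaged, and, over the fits with an array left out, Nanog (-0.012 to 0.55), Ddx4 (-0.079 to 0.17), Dnmt3b (-0.37 to 0.97), Kit (-0.22 to 0.24), Ifitm3 (-0.10 to 0.017), Pou5f1 (-0.10 to 0.24), Stra8 (-0.12 to 0.48), Prdm1 (-0.13 to 0.30), Uhrf1 (-1.53 to 0.59) and Dppa3 (-0.15 to 0.014). Of 46 other probe sets of named called genes above 4.81, 42 shared the direction. Levels below 4.81 limit the size of changes: 380 of the 1872 genes called had 1 group below it.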
